A study of Mus musculus with 15 samples.

Results

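The 43 genes described here are a set of S phase and mitosis genes, taken by symbol from the 24982 gene symbols counted in each aorta. They were grouped by role into nucleotide synthesis, replication and S phase chromatin, G1-S regulators, G2-M cyclins, mitotic kinases and checkpoint proteins, centromere and kinetochore proteins, chromosome structure, spindle motors, cytokinesis and the anaphase-promoting complex. All 43 had at least 1 count. A cell that enters S phase makes deoxynucleotides and copies its DNA and chromatin, and in mitosis it condenses its chromosomes, attaches them to a spindle and divides. Most of these genes are transcribed periodically, with E2F factors acting at the G1-S boundary. The MuvB, B-Myb and FOXM1 proteins act later, through an element named the cell cycle genes homology region (CHR). CCAAT boxes are a separate element of many of these promoters. In a resting adult aorta few wall cells divide, and transcripts of this kind can come from vascular cells or from dividing leukocytes and their precursors. In whole tissue, more dividing cells and more RNA per dividing cell cannot be told apart.

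Gene expression was measured by RNA-Seq of poly(A) RNA in whole cleaned aortas of 15 male wild-type C57BL/6 mice aged 10 months, 5 a group and 1 aorta a library. Control mice were sham-operated, and the other mice were orchiectomized, which removes gonadal androgen. After 2 weeks all 15 mice, controls included, received Aldo-salt, that is aldosterone at 200 µg/kg per day by minipump with 0.9% NaCl and 0.2% KCl in the drinking water, and their aortas were taken on day 7. The third group also received a pellet of dihydrotestosterone (DHT), an androgen that is not converted to estrogen. No group was without Aldo-salt and no intact mouse received DHT, so the comparisons show the effects of orchiectomy and of DHT in mice given aldosterone and salt.

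Libraries held 8268957 to 13816864 reads on genes (median 10930079), and levels are given as CPM, the reads of a gene among 1000000 reads on genes after TMM scaling. At this depth 3 counts are 0.206 to 0.385 CPM. Several members were measured on few reads, and 3 (*Bub1*, *Ttk* and *Ncapg*) were too low to be tested, which left 40 members tested among 14121 genes. Of these 40, 38 reached the cutoff of 0.915 CPM in at least 5 libraries outside the orchiectomized group, and 2, *Kif2c* (4 libraries) and *Ndc80* (3 libraries), did not and were tested through the orchiectomized group, in which they were highest. The orchiectomized libraries of replicates 2 and 3 stood apart. Replicate 2 held 22367 counts of *Sftpc*, the surfactant protein of lung alveoli, against 0 in each control library. Replicate 3 held 612 counts of *Rag1*, the recombinase of developing lymphocytes, against 0 to 23 in the control libraries. Replicate 4 held 57 counts of *Sftpc* and 49 of *Rag1*. Results are therefore given with all libraries, without orchiectomized replicates 2 and 3, and, for the main counts, without replicates 2, 3 and 4. A member is called changed at an unadjusted P value under 0.01 in edgeR's quasi-likelihood test, and adjusted P values (Benjamini-Hochberg over all genes tested) stand beside it. Rose and fell are used for such calls, many of which do not hold at an adjusted P value under 0.05, and replicate numbers do not pair mice across groups. Fold changes are on the log2 scale with their standard error.

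The members have promoter elements in common that played no part in choosing them. RefSeq's table of gene starts (build GRCm38.p6) held 38 windows for 36 of the 43 members, and *Stmn1*, *Ccne2*, *Ccna2*, *Foxm1*, *Aurkb*, *Tpx2* and *Kif20a* had none. In the 250 bases before the start, a CCAAT box was present on either strand in 73.7% of the members' windows, against 33.8% of all 32851 windows. The CHR, searched as TTTGAA or TTCGAA, was present in 31.6% against 17.1%. E2F sites, searched as TTTGGCGC, TTTCGCGC, TTCCCGCC and TTTCCCGC, of which the last and the one before it overlap in their letters, were present in 13.2% against 2.92%. The E2F matches lay in 5 windows of 4 genes, *Cdk1*, *Hells*, *Rrm1* and *Uhrf1*. *Uhrf1* and *Prc1* were counted with 2 windows each, those of *Prc1* overlapping. Both CHR and CCAAT were present in 28.9% of the members' windows and in 6.02% of all, and none of the 3 elements in 21.1% against 53.4%. These shares are descriptions that were not matched for base composition, and a match of letters is not a shown binding site. The windows of 7 members that fell with DHT are printed 5′ to 3′ on the gene's own strand, with the matched letters in capitals, as examples of windows with many and few matches that were chosen after the matches were seen. *Top2a* (chr11:99024190-99024439, minus strand) held 4 CHR and 6 CCAAT matches. *Mki67* (chr7:135716380-135716629, minus strand) held 2 and 3, *Ccnb2* (chr9:70421555-70421804, minus strand) 1 and 3, *Kif11* (chr19:37376132-37376381, plus strand) 1 and 1, and *Hmgb2* (chr8:57511593-57511842, plus strand) 2 and 4. *Rrm1* (chr7:102441445-102441694, plus strand), a gene of S phase, held 2 CCAAT matches, 1 E2F match and no CHR match. *Racgap1* (chr15:99651657-99651906, minus strand) and *Kif4*, both called with DHT in 2 comparisons, held no CHR match, *Racgap1* having 1 CCAAT match. The window of *Nusap1*, called in 2 comparisons, held none of the 3 elements and is not printed, since it overlaps an exon of *Oip5*.
Top2a: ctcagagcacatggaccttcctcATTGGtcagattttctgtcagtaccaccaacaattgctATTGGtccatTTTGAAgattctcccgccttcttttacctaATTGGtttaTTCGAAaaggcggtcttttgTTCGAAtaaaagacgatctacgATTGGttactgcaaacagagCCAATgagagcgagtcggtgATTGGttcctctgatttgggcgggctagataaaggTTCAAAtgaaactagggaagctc
Mki67: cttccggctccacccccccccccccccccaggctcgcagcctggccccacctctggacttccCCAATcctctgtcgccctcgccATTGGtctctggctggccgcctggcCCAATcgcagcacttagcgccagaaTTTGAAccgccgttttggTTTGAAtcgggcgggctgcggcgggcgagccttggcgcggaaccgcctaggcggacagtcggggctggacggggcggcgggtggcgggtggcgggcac
Ccnb2: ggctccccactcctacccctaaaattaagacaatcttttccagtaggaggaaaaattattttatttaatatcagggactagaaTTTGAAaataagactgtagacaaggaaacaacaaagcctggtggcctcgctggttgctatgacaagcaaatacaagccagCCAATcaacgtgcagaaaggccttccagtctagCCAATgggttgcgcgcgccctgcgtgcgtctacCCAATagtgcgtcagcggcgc
Kif11: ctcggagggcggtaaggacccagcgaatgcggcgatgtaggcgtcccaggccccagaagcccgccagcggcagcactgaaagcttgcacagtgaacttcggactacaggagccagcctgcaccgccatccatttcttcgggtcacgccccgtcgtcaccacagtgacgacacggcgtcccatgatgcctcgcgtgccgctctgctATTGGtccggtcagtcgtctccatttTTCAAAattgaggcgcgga
Hmgb2: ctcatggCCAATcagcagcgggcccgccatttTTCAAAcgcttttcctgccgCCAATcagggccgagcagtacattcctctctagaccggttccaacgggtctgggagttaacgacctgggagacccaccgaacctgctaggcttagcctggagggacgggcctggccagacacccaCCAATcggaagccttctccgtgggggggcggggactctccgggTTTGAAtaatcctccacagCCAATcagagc
Rrm1: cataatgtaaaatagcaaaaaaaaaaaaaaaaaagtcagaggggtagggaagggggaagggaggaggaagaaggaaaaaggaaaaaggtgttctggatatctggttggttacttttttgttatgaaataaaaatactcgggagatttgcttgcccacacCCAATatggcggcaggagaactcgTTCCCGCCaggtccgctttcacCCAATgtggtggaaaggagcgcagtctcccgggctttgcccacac
Racgap1: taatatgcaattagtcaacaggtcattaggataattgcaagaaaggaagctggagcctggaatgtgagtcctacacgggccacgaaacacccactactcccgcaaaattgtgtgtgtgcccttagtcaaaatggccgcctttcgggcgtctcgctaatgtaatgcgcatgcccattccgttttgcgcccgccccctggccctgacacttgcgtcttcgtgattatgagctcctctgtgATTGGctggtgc

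Summed over the 43 members, the level was 185, 244, 228, 240 and 250 CPM in control replicates 1 to 5. It was 306, 443, 358, 290 and 277 CPM in the orchiectomized mice and 170, 211, 185, 161 and 201 CPM in the DHT-treated orchiectomized mice. Each orchiectomized library lay above each control and each DHT-treated library, while the control and DHT-treated groups overlapped. Replicates 2 and 3 were the highest of the orchiectomized libraries, and the other 3 also lay above all controls. The mean log2 CPM of the members, in which each gene counts alike, was 1.76 ± 0.23 in the control, 2.26 ± 0.28 in the orchiectomized and 1.30 ± 0.19 in the DHT-treated orchiectomized mice (SD, n = 5 each). Orchiectomized replicate 2 had the highest value of all 15 libraries in 22 members and replicate 3 in 18. In single libraries, 36, 41, 37, 33 and 31 of the 43 were above the highest DHT-treated library in orchiectomized replicates 1 to 5, where 21.1%, 32.0%, 28.7%, 21.4% and 17.7% of the 14121 genes tested were. Above the highest control library were 19, 36, 33, 21 and 13 members in the same 5 libraries, against 23.6%, 34.2%, 25.9%, 13.7% and 14.9% of all genes tested.

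**Figure D1:**
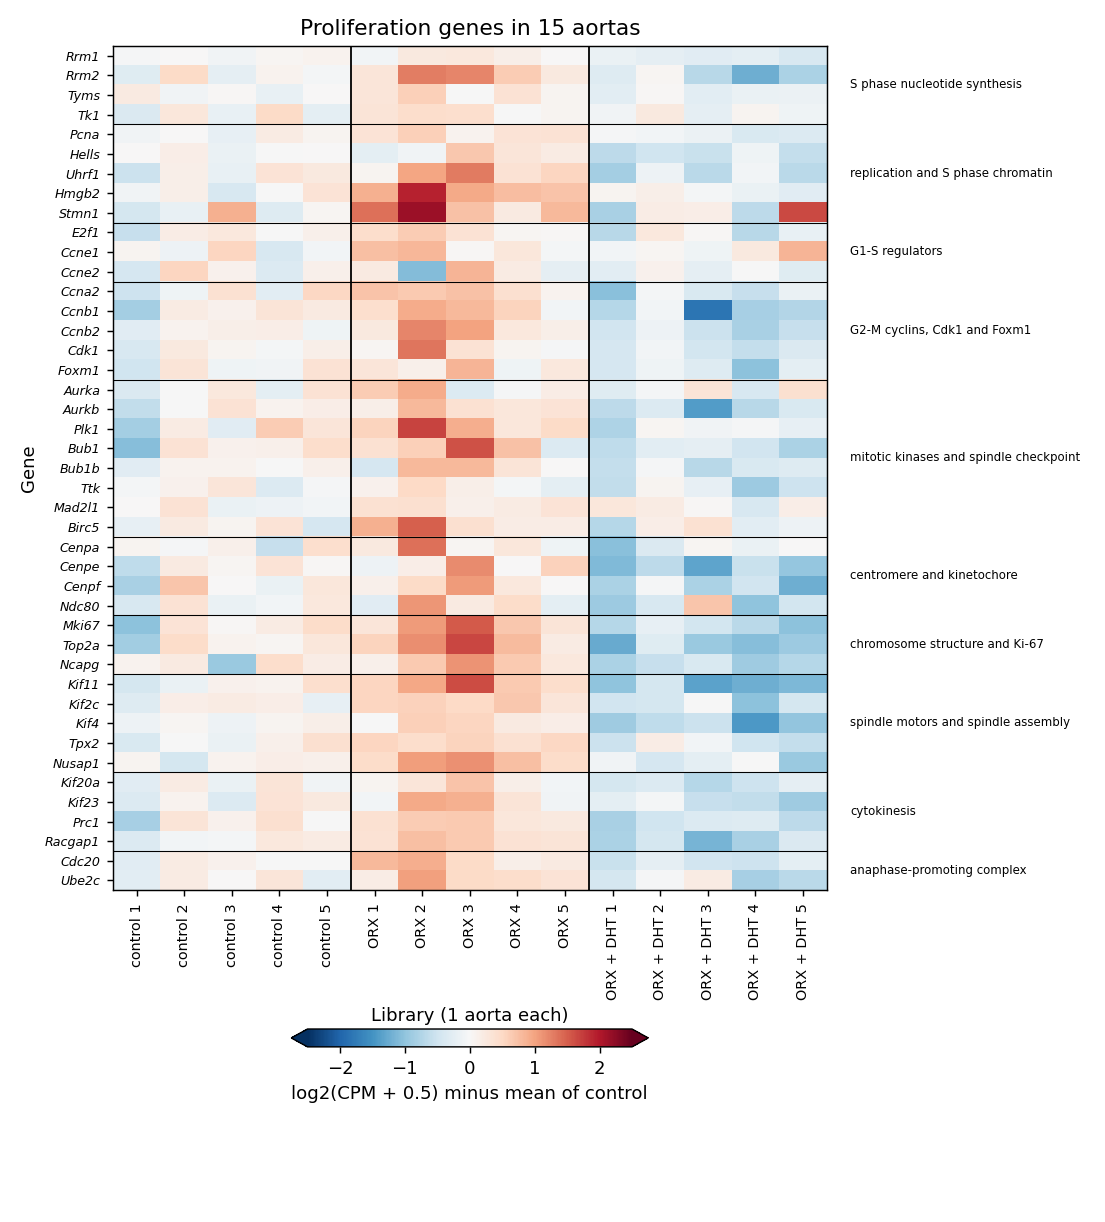
Level of each of the 43 proliferation genes (y axis, by role) in each of the 15 libraries (x axis, 1 aorta each), as log2(CPM + 0.5) minus the mean of the 5 control libraries, with red higher and blue lower. ORX, orchiectomized. Orchiectomized replicates 2 and 3 are the darkest red columns, and the DHT-treated columns are mostly blue.

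Transcripts of other cell types were also higher in several orchiectomized libraries. The 8 B cell markers summed to 4.21 to 11.3 CPM in control, to 8.29, 181, 47.6, 83.6 and 15.4 CPM in orchiectomized replicates 1 to 5 and to 3.76 to 12.7 CPM in DHT-treated mice, and 7 of the 7 tested rose after orchiectomy and fell with DHT. Of 18 thymocyte markers 10 were tested, of which 6 rose after orchiectomy (*Tcf7*, *Rag1*, *Lck*, *Cd8a*, *Cd3g* and *Cd3e*). These 6 and *Cd4* fell with DHT. The list is not limited to thymocytes, since the paper identified T cells of the aorta by CD3, CD4 and CD8. The 18 summed to 74.6 to 170 CPM in control, 82.6 to 298 CPM in orchiectomized and 62.5 to 128 CPM in DHT-treated mice. *Ptcra* had no count in control and *Rag2* none in DHT-treated mice. The 12 lung epithelial markers, of which the 2 tested rose after orchiectomy and fell with DHT, summed to 3.90 to 6.52 CPM in control, to 12.7, 7222, 17.8, 43.2 and 7.81 CPM in orchiectomized replicates 1 to 5 and to 4.05 to 7.27 CPM in DHT-treated mice. *Sftpc* and *Slc34a2* had no count in any control library, and *Cldn18* and *Nkx2-1* none in any DHT-treated library. Neutrophil and granulocyte precursor markers summed to 2.83 to 4.35 CPM in control, 9.21 to 1150 CPM in orchiectomized and 3.51 to 14.8 CPM in DHT-treated mice, and 4 of the 5 tested rose after orchiectomy and fell with DHT. Without orchiectomized replicates 2 and 3, 4 of 7 B cell, 2 of 10 thymocyte (*Cd8a* and *Cd3g*) and 4 of 5 neutrophil markers tested rose after orchiectomy. So did 3 of 3 lung markers, where 2 were tested with all libraries. With DHT, 4 B cell, 4 thymocyte, 2 neutrophil and 2 lung markers fell. Over all genes tested, 2.08% rose after orchiectomy and 7.27% fell with DHT with all libraries, and 0.559% and 3.56% without these 2. Many of these markers were low outside the orchiectomized group. They may have passed the filter on low counts through that group, so their counts are descriptions only. The part of these cells in the level of the members was not tested. Orchiectomized replicates 1 and 5 had the lowest B cell, thymocyte and lung sums of their group, with B cell sums of 8.29 and 15.4 CPM and thymocyte sums of 82.6 and 101 CPM, and the members summed to 306 and 277 CPM there, above all controls. These 2 libraries were not free of other cells, since their lung sums (12.7 and 7.81 CPM) and neutrophil sums (37.2 and 15.4 CPM) were above all controls, as was the B cell sum of replicate 5.

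Markers of the cells of the aortic wall were read beside the members. None of the 6 smooth muscle markers passed the test in the first 2 comparisons, and their sum was 14018 to 20143 CPM in control, 10327 to 20473 CPM in orchiectomized and 19668 to 24499 CPM in DHT-treated mice. Of 8 macrophage markers 3 fell with DHT (*Adgre1*, *Lyz2* and *Csf1r*), with sums of 352 to 910 CPM in control, 605 to 1407 CPM in orchiectomized and 330 to 641 CPM in DHT-treated mice, and none did without orchiectomized replicates 2 and 3. Of 6 fibroblast markers *Lum* and *Dpt* fell with DHT (-1.90 ± 0.27, adjusted P = 0.0036, and -0.91 ± 0.20, adjusted P = 0.024). Of 6 endothelial markers *Pecam1* and *Vwf* fell (-0.53 ± 0.13, adjusted P = 0.032, and -0.82 ± 0.22, adjusted P = 0.044), where 3.80% of all genes were lower at an adjusted P value under 0.05. *Vwf* was no longer called without orchiectomized replicates 2 and 3, and of the other 3 *Lum* passed at an adjusted P value under 0.05. The fibroblast sum was 2663 to 3939 CPM in control, 2786 to 4134 CPM in orchiectomized and 1862 to 2992 CPM in DHT-treated mice. The endothelial sum was 695 to 1037, 796 to 1181 and 566 to 762 CPM in the same order. Of 9 erythroid markers 3 were tested and *Tfrc*, the transferrin receptor that dividing cells of many kinds carry, fell with DHT. The globin genes *Hba-a1*, *Hbb-bs* and *Hbb-bt* had no count in any library. How the counting treated them is not known, so this is not read as an absence of blood RNA. Of 4 germinal centre markers 2 were tested and *S1pr2* fell with DHT. These 4 genes summed to 22.9 to 37.8 CPM in control mice, above the 4.21 to 11.3 CPM of the 8 B cell markers. The call of *S1pr2* is therefore not read as a change in germinal centre cells.

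**Figure D2:**
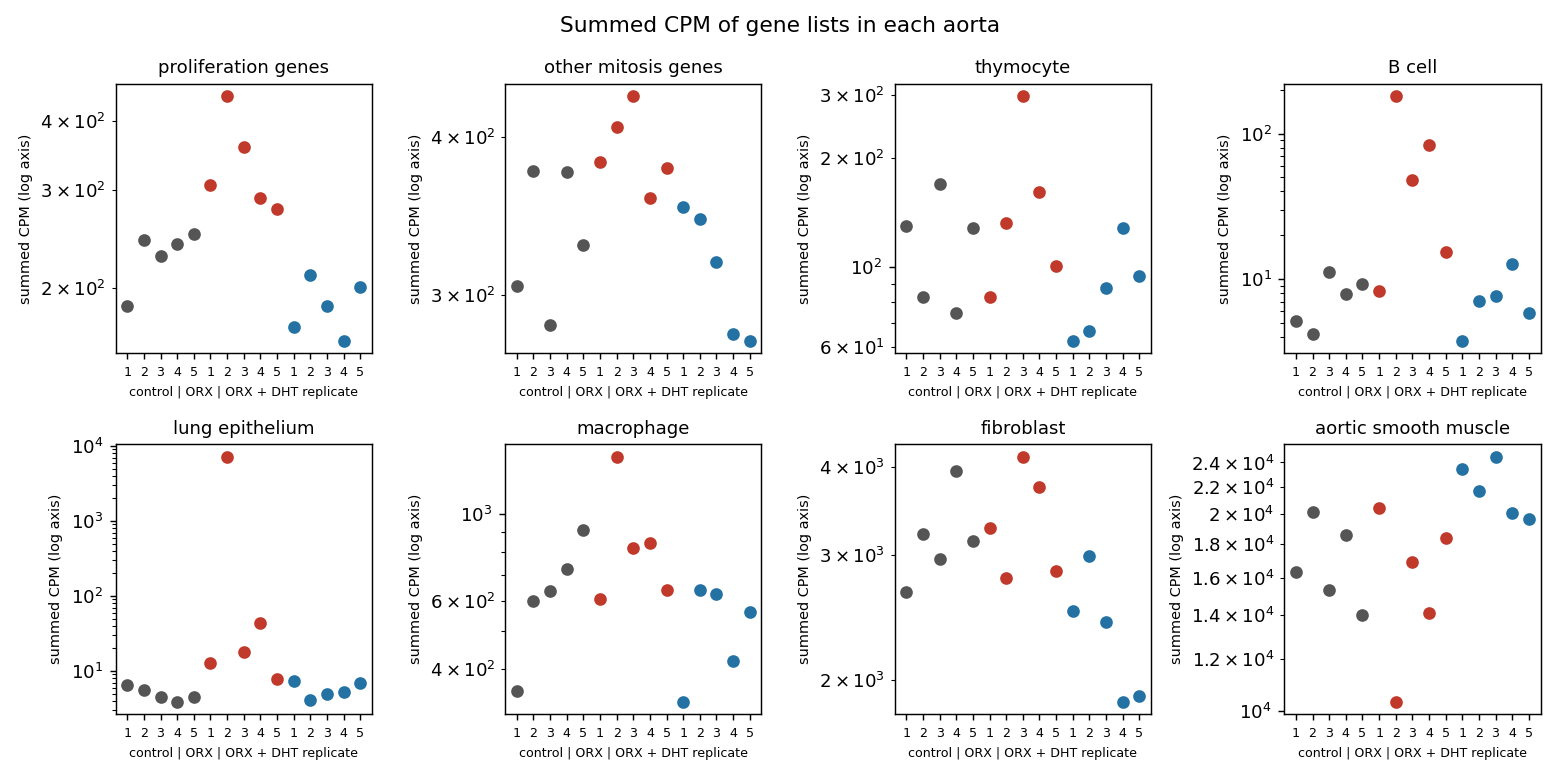
Summed CPM (y axes, log scale) of the proliferation genes, of other mitosis genes and of 6 marker lists in each library, with replicates 1 to 5 of the control (grey), orchiectomized (ORX, red) and DHT-treated orchiectomized mice (ORX + DHT, blue) on the x axes. The highest B cell, lung epithelial and proliferation sums all belong to orchiectomized replicate 2 (181, 7222 and 443 CPM).

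The first comparison asks what orchiectomy changed in aortas under Aldo-salt. There, 6 members rose (*Pcna*, *Hmgb2*, *Top2a*, *Kif11*, *Nusap1* and *Cdc20*) and 0 fell in edgeR's test. That is 6 of the 40 tested, where 2.08% of all genes tested were called higher and 1.13% lower. None of the 40 passed at an adjusted P value under 0.05 in edgeR, and no gene of the 14121 did (0%). At the unadjusted threshold of 0.01, at which edgeR called 6 members higher, DESeq2 called 8, with 2.15% of all genes higher and 2.24% lower. With the wider unadjusted threshold of 0.05, 17 of the 40 were higher, against 7.39% of all genes. The log2 fold changes of the 40 members were all above 0, from 0.12 in *Ccne2* to 1.16 in *Stmn1*, with a median of 0.50 beside 0.04 over all genes. The 5 orchiectomized libraries lay wholly above the 5 controls in 5 members, *Hmgb2*, *Kif11*, *Nusap1*, *Racgap1* and *Kif2c*, against 0.991% of all genes. *Kif2c*, which is also among the 17, was tested only through the group in which it is high, which leaves 4 such members and 16 of the 17. Without orchiectomized replicates 2 and 3, only *Hmgb2* was called (1 of 40, against 0.559% of 14309 genes, and 0 lower against 0.482%), the median was 0.30, and 39 of the 40 were above 0. Without replicates 2, 3 and 4 again 1 member, *Hmgb2*, was called (0.477% of genes), with a median of 0.24 and 31 of 40 above 0.

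The second comparison asks what DHT changed in orchiectomized mice, and the members were lower almost throughout. Of the 40 tested, 30 fell and 0 rose, where 7.27% of all genes were called lower and 2.46% higher. At an adjusted P value under 0.05, 20 of the 40 fell, against 3.80% of all genes, and 33 were lower with the wider unadjusted threshold of 0.05, against 13.9%. The log2 fold changes of all 40 were below 0, from -0.21 in *Ccne1* to -2.34 in *Kif11*, with a median of -1.06 beside -0.02 over all genes. *Kif2c*, tested only through its high group, is among the 30 and the 20. In 24 members, *Kif2c* included, every DHT-treated library lay below every orchiectomized library, against 4.34% of all genes. Without orchiectomized replicates 2 and 3, 18 members fell (3.56% of 14309 genes) and 0 rose (1.90%), 4 of them at an adjusted P value under 0.05 (*Hmgb2*, *Top2a*, *Kif11* and *Racgap1*, 0.461% of genes), the median was -0.80 and all 40 were below 0. Groups then did not overlap in 25 members (6.86% of genes). Without replicates 2, 3 and 4, 10 members fell (1.54% of 14468 genes), namely *Pcna*, *Hmgb2*, *Cenpe*, *Top2a*, *Kif11*, *Kif2c*, *Kif4*, *Tpx2*, *Racgap1* and *Cdc20*, with a median of -0.77 and all 40 below 0. The first 2 comparisons share the orchiectomized libraries, so a high orchiectomized library raises the first and lowers the second, and they are not independent of each other.

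The third comparison sets DHT-treated orchiectomized mice against sham-operated controls and does not use the orchiectomized libraries, other than for the spread and the scaling of the shared fit. Here 6 members fell (*Rrm1*, *Cenpe*, *Top2a*, *Kif11*, *Kif4* and *Racgap1*) and 0 rose, where 2.01% of all genes were called lower and 1.52% higher. None passed at an adjusted P value under 0.05 (0.149% of all genes did), and 16 of the 40 were lower with the wider unadjusted threshold of 0.05, against 6.52%. The median log2 fold change was -0.48, beside 0.00 over all genes, with 36 members below 0 and 4 (*Stmn1*, *Ccne1*, *Aurka* and *Mad2l1*) above. The groups did not overlap in *Rrm1*, *Kif11*, *Kif4* and *Racgap1* (1.79% of genes). Markers of other cells were called in this comparison too, and their part in the members' levels was not tested. *Lum* and *Tfrc* were lower at an adjusted P value under 0.05, *Pi16* of fibroblasts, *Pecam1* and *Vwf* of endothelium and *S1pr2* of the germinal centre list were lower without passing it, and *S100a8* and *S100a9* of neutrophils were higher. No B cell, thymocyte, lung or macrophage marker was called, and the smooth muscle markers *Lmod1* and *Smtn* were called higher only when orchiectomized replicates 2 and 3 were left out. When these 2 libraries were left out of the fit, the same 6 members were called lower (2.54% of genes) and 0 higher (2.37%). Of the 15 fits that left out 1 library, *Top2a* was called in 7, *Rrm1* in 10 and the other 4 members in all 15.

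**Figure D3:**
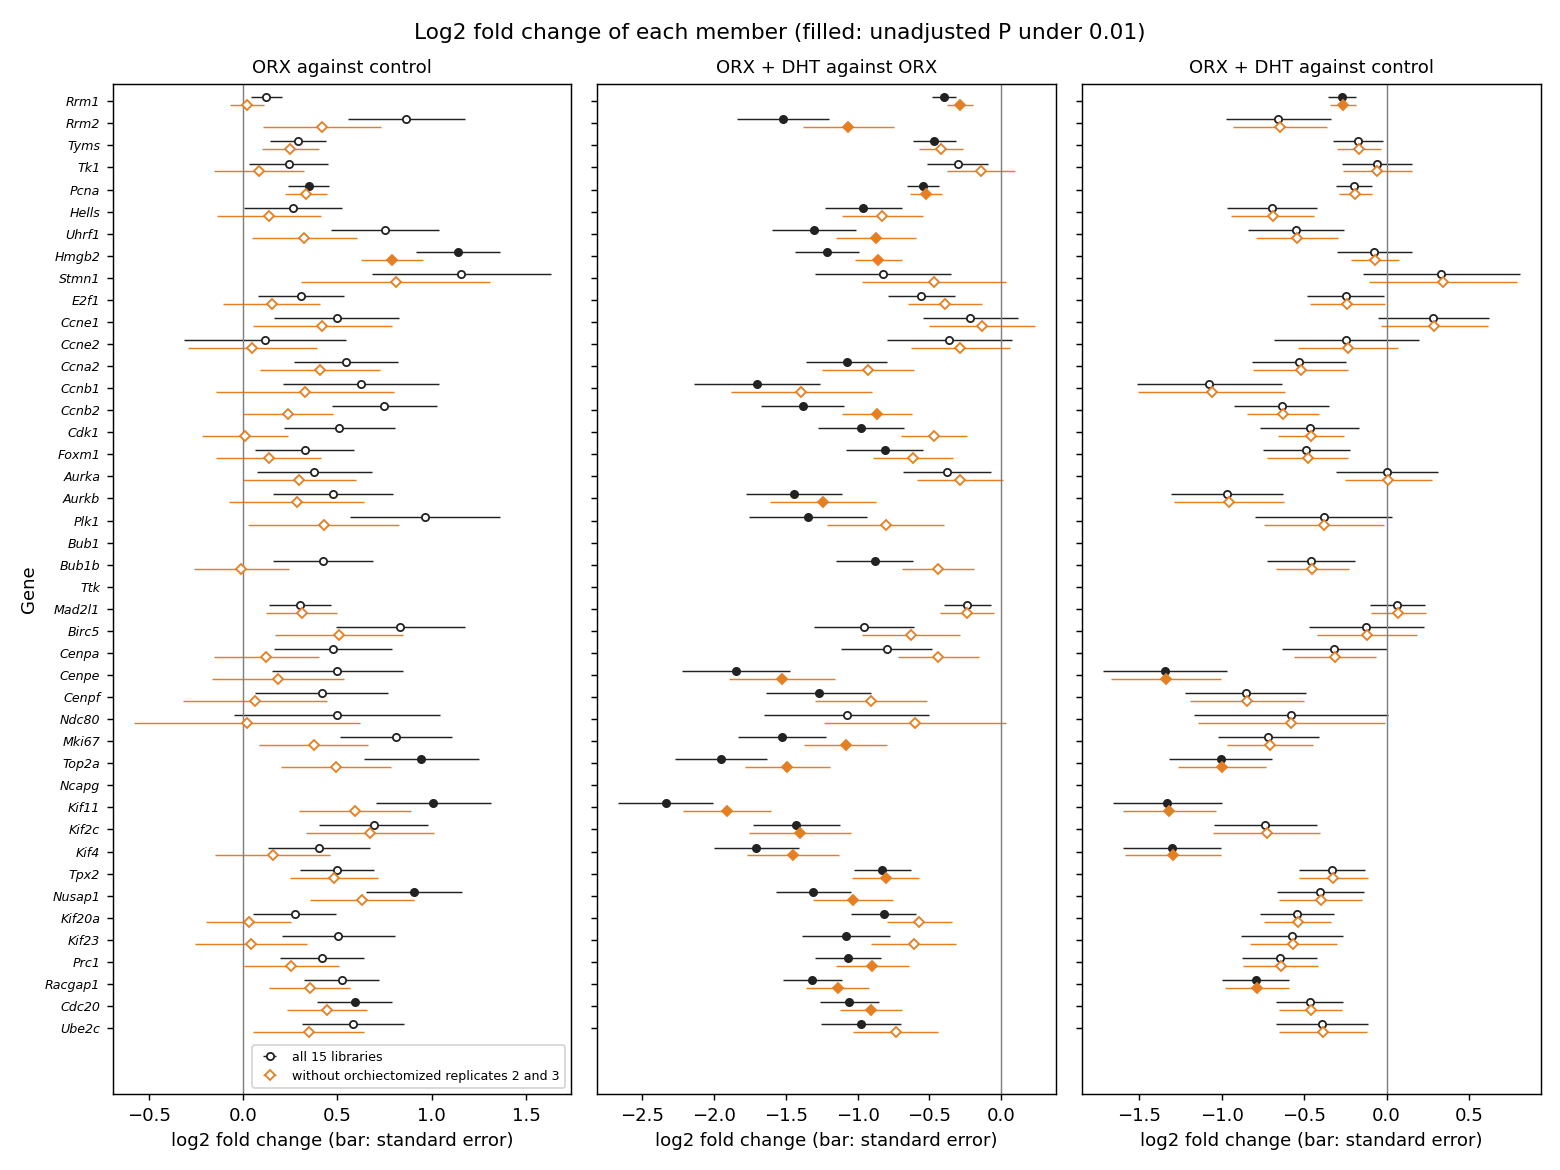
Log2 fold change of each member (y axis, by role) in the 3 comparisons (panels), with all 15 libraries (black circles) and without orchiectomized replicates 2 and 3 (orange diamonds), and bars for the standard error. Filled points have an unadjusted P value under 0.01, the x axes differ between panels, and *Bub1*, *Ttk* and *Ncapg* were not tested. All points of the middle panel lie left of 0.

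The role groups described next hold 2 to 8 genes each. Their counts are read against the 7.27% of all genes that fell with DHT and the 2.08% that rose after orchiectomy. Without orchiectomized replicates 2 and 3 these shares were 3.56% and 0.559%. Among the genes of deoxynucleotide synthesis, 3 of 4 fell with DHT (*Rrm1*, *Rrm2* and *Tyms*) and none rose after orchiectomy. *Rrm2* encodes the S phase subunit of ribonucleotide reductase, which makes deoxynucleotides from ribonucleotides. *Rrm2* was at 2.54, 4.68, 2.71, 3.47 and 3.10 CPM in control replicates 1 to 5. The orchiectomized mice had 4.09, 8.58, 8.22, 5.29 and 3.91 CPM and the DHT-treated orchiectomized mice 2.48, 3.33, 1.79, 1.11 and 1.65 CPM. All 5 orchiectomized values were above all DHT-treated values, and replicates 2 and 3 were the highest, while control and DHT-treated values overlapped. The log2 fold change of *Rrm2* was -1.52 ± 0.32 (adjusted P = 0.019) for DHT against orchiectomized and 0.86 ± 0.31 (adjusted P = 0.33) for orchiectomized against control, and without replicates 2 and 3 they were -1.06 ± 0.32 (adjusted P = 0.13) and 0.42. *Rrm1*, the large subunit of the same enzyme, varied less between libraries. *Rrm1* was at 30.7, 31.6, 29.6, 32.5 and 33.3 CPM in control replicates 1 to 5. Its level was 30.1, 37.5, 37.7, 34.7 and 31.7 CPM in orchiectomized replicates 1 to 5 and 27.9, 26.8, 25.8, 26.5 and 23.8 CPM in DHT-treated orchiectomized replicates 1 to 5. The DHT-treated values lay below all others, those of control and orchiectomized mice overlapped, and *Rrm1* fell by a small amount, with log2 fold changes of -0.39 ± 0.08 (adjusted P = 0.020) against orchiectomized and -0.27 ± 0.08 (adjusted P = 0.24) against control mice. *Tyms*, thymidylate synthase, fell with DHT (-0.47 ± 0.15, adjusted P = 0.088) but not without replicates 2 and 3 (-0.42 ± 0.15, adjusted P = 0.22). *Tk1*, the thymidine kinase of the salvage pathway, did not pass the test (-0.30 ± 0.21, adjusted P = 0.44).

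Of the 5 replication and S phase chromatin genes, 2 rose after orchiectomy (*Pcna* and *Hmgb2*) and 4 fell with DHT (*Pcna*, *Hells*, *Uhrf1* and *Hmgb2*). *Hmgb2* encodes a DNA-bending chromatin protein that is abundant in dividing cells. *Hmgb2* was at 9.78, 11.7, 7.82, 10.5 and 13.5 CPM in control replicates 1 to 5. In the orchiectomized mice it was at 19.8, 41.1, 20.8, 18.3 and 17.6 CPM, and in the DHT-treated orchiectomized mice at 11.0, 11.7, 10.1, 9.26 and 8.48 CPM. Orchiectomized replicate 2 was far above the rest, and the lowest of the 5 orchiectomized values still exceeded the highest of the other 10 libraries. *Hmgb2* rose after orchiectomy by 1.14 ± 0.22 (adjusted P = 0.13) and changed by -1.21 ± 0.23 (adjusted P = 0.012) with DHT. When replicates 2 and 3 were left out the values were 0.79 ± 0.16 (adjusted P = 0.62) and -0.86 ± 0.16 (adjusted P = 0.040), and DHT-treated mice differed from controls by -0.07 ± 0.23 (adjusted P = 0.92). *Hmgb2* was the only member called after orchiectomy in all 15 fits that left out 1 library and in all 8 other settings. Of these 15 fits the rise was called in 14 for *Nusap1*, 11 for *Kif11*, 7 for *Pcna* and 6 for *Top2a*.

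*Pcna*, the sliding clamp that holds DNA polymerase on its template, had the highest level per length of the 43 members, 20.4 ± 2.29 CPM per kb in control mice (SD, n = 5). *Pcna* was at 46.0, 49.4, 42.1, 56.7 and 51.1 CPM in control replicates 1 to 5. The orchiectomized mice had 62.1, 74.0, 51.8, 62.3 and 62.5 CPM and the DHT-treated orchiectomized mice 47.8, 46.7, 44.1, 37.4 and 38.3 CPM. Orchiectomized and DHT-treated values did not overlap, and replicate 3 was the lowest of the orchiectomized libraries and replicate 2 the highest. The log2 fold change of *Pcna* was 0.35 ± 0.11 (adjusted P = 0.29) after orchiectomy and -0.54 ± 0.11 (adjusted P = 0.016) with DHT. When these replicates were left out it was 0.33 ± 0.11 (adjusted P = 0.81) and -0.52 ± 0.11 (adjusted P = 0.056). *Uhrf1*, which brings DNA methyltransferase to newly copied DNA, fell with DHT, with a log2 fold change of -1.30 ± 0.29 (adjusted P = 0.024), and *Hells*, a chromatin remodeler, also fell, at -0.96 ± 0.27 (adjusted P = 0.055), which did not pass without replicates 2 and 3 (adjusted P = 0.19). *Stmn1*, which destabilizes microtubules and is also made by neurons, ranged from 7.35 to 43.1 CPM within the DHT-treated group and from 15.7 to 60.4 CPM within the orchiectomized group, and did not pass the test in any comparison (adjusted P = 0.37, adjusted P = 0.33 and adjusted P = 0.81).

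None of the 3 G1-S regulators passed the test in any comparison. *E2f1* encodes a transcription factor that turns on S phase genes. *E2f1* was at 4.89, 8.62, 9.18, 7.51 and 8.21 CPM in control replicates 1 to 5. Its level was 10.3, 11.9, 9.79, 7.77 and 7.65 CPM in orchiectomized replicates 1 to 5 and 4.45, 9.19, 7.69, 4.44 and 6.52 CPM in DHT-treated orchiectomized replicates 1 to 5. The 3 groups overlapped, and the log2 fold changes of *E2f1* were 0.31 ± 0.23 (adjusted P = 0.60) after orchiectomy and -0.55 ± 0.23 (adjusted P = 0.18) with DHT. The E-type cyclins *Ccne1* and *Ccne2*, which activate the kinase that starts replication, were at 1.32 ± 0.465 and 1.18 ± 0.465 CPM in control, 1.86 ± 0.664 and 1.28 ± 0.801 CPM in orchiectomized and 1.60 ± 0.634 and 0.990 ± 0.188 CPM in DHT-treated mice (SD, n = 5). With DHT they differed by -0.21 ± 0.33 (adjusted P = 0.76) and -0.36 ± 0.44 (adjusted P = 0.68), differences smaller than their standard errors. *Ccne2* was lowest of all 15 libraries in orchiectomized replicate 2, at 0.265 CPM, the library in which 22 members were highest.

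All 5 genes of the group of G2-M cyclins, *Cdk1* and *Foxm1*, fell with DHT, and none of them passed the test after orchiectomy. Cyclins A and B bind the kinase CDK1 and drive entry into mitosis. *Ccnb2*, a B-type cyclin, was at 1.63, 2.25, 2.40, 2.41 and 1.92 CPM in control replicates 1 to 5. In the orchiectomized mice it was at 2.58, 5.58, 4.72, 2.61 and 2.36 CPM, and in the DHT-treated orchiectomized mice at 1.37, 1.89, 1.28, 0.987 and 1.24 CPM. Orchiectomized replicates 2 and 3 were the highest, and the other 3 also lay above the highest DHT-treated value. *Ccnb2* fell with DHT (-1.38 ± 0.29, adjusted P = 0.018) and did so without replicates 2 and 3 (-0.87 ± 0.24, adjusted P = 0.12). *Ccnb1* (-1.70 ± 0.44, adjusted P = 0.040), *Ccna2* (-1.08 ± 0.28, adjusted P = 0.042), *Cdk1* (-0.98 ± 0.30, adjusted P = 0.076) and *Foxm1*, the transcription factor of mitotic genes (-0.81 ± 0.27, adjusted P = 0.092), fell with all libraries. Without replicates 2 and 3 none of these 4 passed (adjusted P = 0.20, adjusted P = 0.20, adjusted P = 0.37 and adjusted P = 0.33, in that order). The median log2 fold change of the 5 genes was -1.08 with all libraries and -0.87 without these 2. *Cdk1* was at 7.52 CPM in orchiectomized replicate 2 and at 2.60 to 3.58 CPM in the other 4. *Ccnb1* was measured on few reads, at 0.128 CPM in DHT-treated replicate 3, and 27.7% of its exon sequence is shared with other annotated genes on the same strand, so part of its reads may have been assigned elsewhere.

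Of the 8 mitotic kinases and checkpoint genes 6 were tested, of which 3 fell with DHT (*Aurkb*, *Plk1* and *Bub1b*) and none rose after orchiectomy. *Aurkb*, the kinase of the chromosomal passenger complex, was at 0.815, 1.50, 2.09, 1.63 and 1.73 CPM in control replicates 1 to 5. The orchiectomized mice had 1.72, 3.01, 2.10, 1.92 and 2.03 CPM and the DHT-treated orchiectomized mice 0.770, 1.08, 0.256, 0.741 and 1.03 CPM. All orchiectomized values were above all DHT-treated values, and DHT-treated replicate 3 was the lowest of the 15 libraries. *Aurkb* fell with DHT by 1.44 on the log2 scale (SE 0.34, adjusted P = 0.028), and by 1.24 without replicates 2 and 3 (adjusted P = 0.14). *Plk1*, polo-like kinase (-1.34 ± 0.41, adjusted P = 0.075), and *Bub1b*, a spindle checkpoint protein (-0.88 ± 0.27, adjusted P = 0.074), fell with all libraries and did not pass without these 2 (adjusted P = 0.39 and adjusted P = 0.45). *Plk1* was at 5.58 CPM in orchiectomized replicate 2 and at 1.79 to 3.06 CPM in the other 4. *Aurka*, the kinase of spindle poles (-0.37 ± 0.31, adjusted P = 0.52), *Mad2l1*, a checkpoint protein (-0.24 ± 0.16, adjusted P = 0.44), and *Birc5*, survivin of the passenger complex (-0.96 ± 0.35, adjusted P = 0.12), did not pass. The checkpoint kinases *Bub1* and *Ttk*, too low to be tested, were at 0 to 0.913 and 0.425 to 0.938 CPM in control, 0.326 to 2.62 and 0.488 to 1.15 CPM in orchiectomized and 0.103 to 0.385 and 0.123 to 0.721 CPM in DHT-treated mice. In a fit with no filter on low counts they differed with DHT by -2.20 ± 0.71 (adjusted P = 0.10) and -0.90 ± 0.43 (adjusted P = 0.26), on 1 to 4 and 1 to 8 counts in each DHT-treated library.

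Of the 4 centromere and kinetochore genes, *Cenpe* and *Cenpf* fell with DHT. *Cenpe* encodes the motor that moves chromosomes to the spindle equator. *Cenpe* was at 0.906, 2.06, 1.77, 2.27 and 1.73 CPM in control replicates 1 to 5. Its level was 1.51, 1.95, 4.46, 1.72 and 2.77 CPM in orchiectomized replicates 1 to 5 and 0.513, 0.901, 0.385, 0.987 and 0.620 CPM in DHT-treated orchiectomized replicates 1 to 5. The DHT-treated values lay below all orchiectomized values, and overlapped the controls only in control replicate 1. *Cenpe* fell by 1.85 with DHT against orchiectomized mice on the log2 scale (SE 0.37, adjusted P = 0.017) and by 1.35 against controls (SE 0.38, adjusted P = 0.19). Both held without orchiectomized replicates 2 and 3 (adjusted P = 0.082 and adjusted P = 0.099). *Cenpf*, a large kinetochore protein, was at 2.78 ± 1.20 CPM in control, 3.72 ± 1.37 CPM in orchiectomized and 1.53 ± 0.640 CPM in DHT-treated mice, and fell with DHT (-1.27 ± 0.37, adjusted P = 0.060) but not without replicates 2 and 3 (adjusted P = 0.30). *Cenpa*, the histone variant of centromeres (-0.80 ± 0.32, adjusted P = 0.16), and *Ndc80*, which links the kinetochore to microtubules (-1.07 ± 0.58, adjusted P = 0.30), did not pass.

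*Top2a* and *Mki67* were among the members with the largest changes. *Top2a* encodes topoisomerase II alpha, which untangles copied chromosomes. *Top2a* was at 3.62, 9.83, 7.51, 7.29 and 8.67 CPM in control replicates 1 to 5. In the orchiectomized mice it was at 10.5, 16.4, 23.4, 12.6 and 8.14 CPM, and in the DHT-treated orchiectomized mice at 2.65, 5.59, 3.46, 3.09 and 3.52 CPM. The lowest orchiectomized value, in replicate 5, was above the highest DHT-treated value, and control replicate 1 was the lowest control. *Top2a* rose after orchiectomy by 0.94 ± 0.30 (adjusted P = 0.30), fell with DHT against orchiectomized mice by 1.95 (SE 0.32, adjusted P = 0.0078) and against controls by 1.01 (SE 0.32, adjusted P = 0.24). Of the 15 fits that left out 1 library, the first was called in 6, the second in 15 and the third in 7. Without replicates 2 and 3 the first was 0.49 ± 0.29 (adjusted P = 0.82) and the second -1.49 ± 0.30 (adjusted P = 0.044). *Mki67*, which encodes the proliferation marker Ki-67, was at 3.71, 10.4, 8.34, 9.42 and 11.3 CPM in control replicates 1 to 5. The orchiectomized mice had 10.1, 17.5, 24.5, 13.3 and 10.3 CPM and the DHT-treated orchiectomized mice 4.79, 7.03, 5.77, 4.94 and 3.72 CPM. Orchiectomized replicate 3 was the highest and control replicate 1 stood below the other 4 controls, which together ranged from 8.34 to 11.3 CPM. *Mki67* fell with DHT by 1.53 (SE 0.31, adjusted P = 0.016) and did not pass after orchiectomy (0.81 ± 0.30, adjusted P = 0.34), and without replicates 2 and 3 these were -1.08 ± 0.29 (adjusted P = 0.11) and 0.38 ± 0.29 (adjusted P = 0.84). *Ncapg*, a condensin subunit and the lowest member per length (0.101 CPM per kb in control), was not tested. It had 7 to 23 counts in the orchiectomized libraries and 1 to 3 counts in the DHT-treated ones, at or under the floor of 3 counts, so no fold is given.

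The 4 spindle genes *Kif11*, *Kif4*, *Tpx2* and *Nusap1* fell with DHT at an adjusted P value under 0.05, as did *Kif2c*, which passed the filter on low counts only through the orchiectomized group, and *Kif11* and *Nusap1* rose after orchiectomy. *Kif11* encodes the motor that pushes spindle poles apart. *Kif11* was at 1.63, 2.06, 2.61, 2.55 and 3.38 CPM in control replicates 1 to 5. Its level was 3.66, 5.13, 8.39, 4.06 and 3.42 CPM in orchiectomized replicates 1 to 5 and 0.941, 1.62, 0.641, 0.741 and 0.827 CPM in DHT-treated orchiectomized replicates 1 to 5. The orchiectomized values were above all others, and the highest DHT-treated value, in replicate 2, lay just under the lowest control value, in replicate 1. *Kif11* had the largest fold change with DHT of the members tested, a fall of 2.34 on the log2 scale (SE 0.33, adjusted P = 0.0036). After orchiectomy it rose by 1.01 ± 0.31 (adjusted P = 0.29), and it was lower than in controls in the DHT-treated mice (-1.33 ± 0.33, adjusted P = 0.12). With replicates 2 and 3 left out, these 3 values were -1.91 ± 0.31 (adjusted P = 0.022), 0.59 ± 0.30 (adjusted P = 0.81) and -1.32 ± 0.28 (adjusted P = 0.057). *Kif4*, a motor that sets the length of the central spindle, was at 1.36, 1.59, 1.36, 1.63 and 1.73 CPM in control replicates 1 to 5. In the orchiectomized mice it was at 1.51, 2.57, 2.45, 1.86 and 1.79 CPM, and in the DHT-treated orchiectomized mice at 0.599, 0.811, 0.897, 0.247 and 0.517 CPM. *Kif4* values of control and orchiectomized mice overlapped, and all DHT-treated values were lower. *Kif4* fell with DHT against orchiectomized mice (-1.70 ± 0.29, adjusted P = 0.0090) and against controls (-1.30 ± 0.30, adjusted P = 0.091). *Kif2c*, a microtubule depolymerase (-1.43 ± 0.30, adjusted P = 0.020), *Nusap1*, which bundles spindle microtubules (-1.31 ± 0.26, adjusted P = 0.016), and *Tpx2*, a spindle assembly factor (-0.83 ± 0.20, adjusted P = 0.032), also fell. Without replicates 2 and 3 these 3 and *Kif4* still passed at the unadjusted threshold, but of the spindle genes only *Kif11* had an adjusted P value under 0.05. *Nusap1* rose after orchiectomy by 0.91 ± 0.26 (adjusted P = 0.28).

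**Figure D4:**
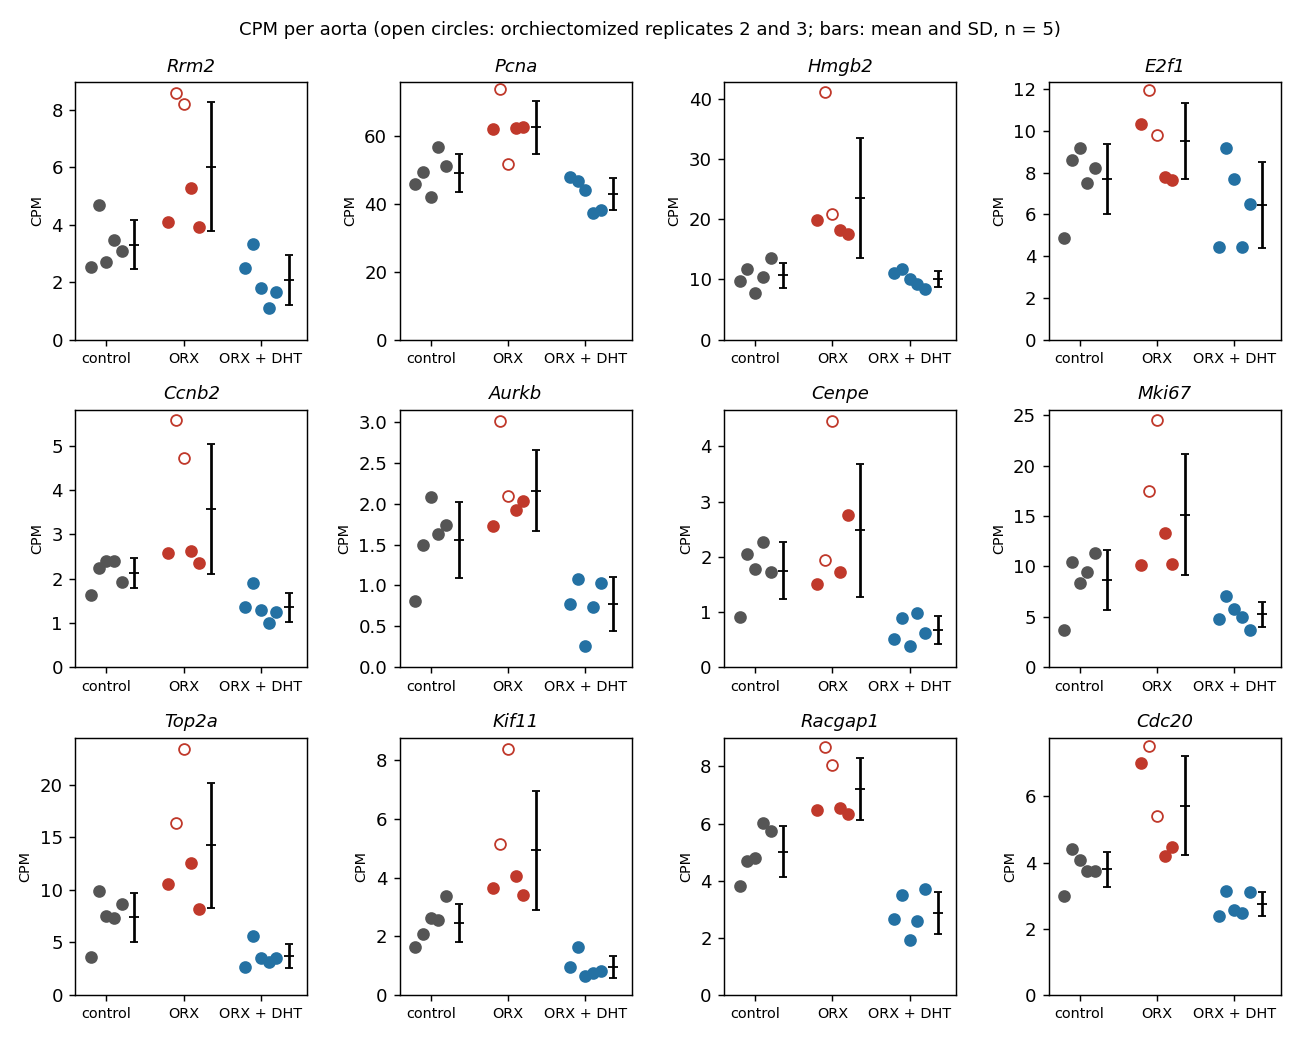
CPM per aorta (y axes, from 0) of 12 members in the control, orchiectomized (ORX) and DHT-treated orchiectomized (ORX + DHT) mice, with 1 point a library and bars for the mean and SD (n = 5). Open circles are orchiectomized replicates 2 and 3. In *Kif11* and *Racgap1* the filled orchiectomized points also lie above all DHT-treated points, at 3.42 to 4.06 and 6.35 to 6.53 CPM.

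The 4 cytokinesis genes all fell with DHT. *Racgap1* encodes a part of the centralspindlin complex, which sets the site of division. *Racgap1* was at 3.80, 4.68, 4.80, 6.02 and 5.75 CPM in control replicates 1 to 5. The orchiectomized mice had 6.46, 8.67, 8.04, 6.53 and 6.35 CPM and the DHT-treated orchiectomized mice 2.65, 3.51, 1.92, 2.59 and 3.72 CPM. The 5 DHT-treated values were the lowest and the 5 orchiectomized values the highest, with no overlap between any 2 groups. *Racgap1* fell with DHT against orchiectomized mice by 1.32 (SE 0.20, adjusted P = 0.0065) and against controls by 0.79 (SE 0.20, adjusted P = 0.14), and orchiectomized mice differed from controls by 0.52 ± 0.20 (adjusted P = 0.34). Without replicates 2 and 3 the first was -1.14 ± 0.22 (adjusted P = 0.040). *Prc1*, which cross-links microtubules of the midzone, fell with DHT (-1.07 ± 0.23, adjusted P = 0.021), also without replicates 2 and 3 (adjusted P = 0.12). The motors *Kif20a* (-0.82 ± 0.22, adjusted P = 0.050) and *Kif23*, the partner of *Racgap1* (-1.08 ± 0.31, adjusted P = 0.056), fell with all libraries and did not pass without these 2 (adjusted P = 0.27 and adjusted P = 0.37).

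Both genes of the anaphase-promoting complex fell with DHT. *Cdc20* encodes the activator that starts anaphase. *Cdc20* was at 2.99, 4.40, 4.07, 3.75 and 3.74 CPM in control replicates 1 to 5. Its level was 7.00, 7.52, 5.42, 4.19 and 4.48 CPM in orchiectomized replicates 1 to 5 and 2.39, 3.15, 2.56, 2.47 and 3.10 CPM in DHT-treated orchiectomized replicates 1 to 5. Orchiectomized replicates 1 and 2 were the highest, replicates 4 and 5 were close to the upper control values, and the DHT-treated values were below all orchiectomized ones. *Cdc20* rose after orchiectomy by 0.59 ± 0.20 (adjusted P = 0.31), just past the threshold, and fell with DHT by 1.06 (SE 0.20, adjusted P = 0.015). The rise was called in 2 of the 15 fits that left out 1 library, and the fall in all 15. *Ube2c*, the ubiquitin-conjugating enzyme of the complex, fell with DHT (-0.98 ± 0.28, adjusted P = 0.057) but not without replicates 2 and 3 (adjusted P = 0.28).

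Genes of the same pathways that are not members were read from 5 other lists. Of 58 other mitosis genes 48 were tested, of which 26 fell with DHT and 0 rose, 3 rose after orchiectomy (*Cdc25b*, *Dlgap5* and *Cks2*), and the median was -0.93 with DHT and 0.49 after orchiectomy. The 3 with the smallest P with DHT were *Dlgap5*, a spindle protein (-2.22 ± 0.35, adjusted P = 0.0065), *Ckap2l*, another spindle protein (-1.95 ± 0.32, adjusted P = 0.0078), and *Lmnb1*, lamin B1 of the nuclear envelope (-1.31 ± 0.25, adjusted P = 0.015). Without orchiectomized replicates 2 and 3, 9 of the 48 fell with DHT, with a median of -0.71. After orchiectomy 2 then rose (*Cdc25b* and *Cks2*), with a median of 0.29. Of 47 other S phase genes 44 were tested, of which 8 fell with DHT, led by *Pole2*, a subunit of DNA polymerase epsilon (-0.81 ± 0.19, adjusted P = 0.030), and *Slbp*, which binds histone mRNA (-0.41 ± 0.11, adjusted P = 0.042), and 1 rose after orchiectomy, the histone acetyltransferase *Hat1* (0.52 ± 0.16, adjusted P = 0.29). That 1 of 44 is near the 2.08% of all genes that rose, as are the 2 of 44 that fell without replicates 2 and 3 (*Pole2* and *Slbp*) near the 3.56% of all genes.

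Of 18 genes of the MCM helicase and replication licensing 16 were tested, of which 4 fell with DHT (*Mcm3*, *Mcm4*, *Mcm5* and *Dbf4*) and 2 rose after orchiectomy (*Mcm3* and *Mcm4*). *Mcm3*, a helicase subunit, had the smallest P of the list in both comparisons (-0.74 ± 0.10, adjusted P = 0.0036 with DHT, and 0.53 ± 0.10, adjusted P = 0.13 after orchiectomy). Without orchiectomized replicates 2 and 3, 3 fell with DHT (*Mcm3*, *Mcm5* and *Mcm6*). Of 12 genes of G1 cyclins and kinases 2 fell with DHT, *Myc* (-0.96 ± 0.24, adjusted P = 0.036) and *Ccnd1*, cyclin D1 (-0.90 ± 0.24, adjusted P = 0.044), and none rose after orchiectomy. Without orchiectomized replicates 2 and 3 *Myc* alone of the 12 fell. Of 20 cell cycle inhibitors and quiescence genes 19 were tested, of which none passed with DHT and *Rb1*, the retinoblastoma protein, was lower after orchiectomy (-0.31 ± 0.09, adjusted P = 0.28), with a median of -0.06 after orchiectomy and -0.07 with DHT. Read against the 7.27% of all genes that fell with DHT, the members were at 30 of 40, other mitosis genes at 26 of 48, licensing genes at 4 of 16, other S phase genes at 8 of 44 and G1 genes at 2 of 12. The differences between these lists were not tested.

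**Figure D5:**
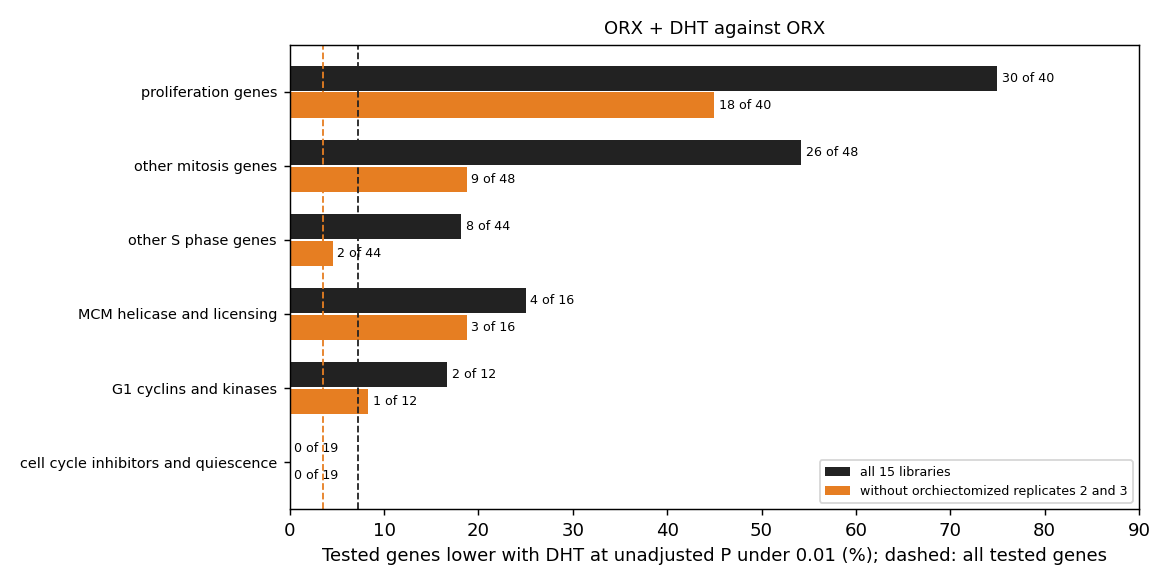
Share of the tested genes of the proliferation set and 5 other cell cycle lists (y axis) that were lower with DHT than in untreated orchiectomized mice at an unadjusted P value under 0.01 (x axis, percent), with all 15 libraries (black) and without orchiectomized replicates 2 and 3 (orange). Dashed lines give the share over all genes tested (7.27% and 3.56%), and the numbers beside the bars are genes called of genes tested.

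The members lie on 18 chromosomes. Per length of annotated exon, *Pcna* was followed in control mice by *Stmn1* (7.39 ± 3.28 CPM per kb), *Hmgb2* (3.55 ± 0.71 CPM per kb) and *Rrm1* (2.86 ± 0.13 CPM per kb, SD, n = 5). *Hmgb2* and *Rrm1*, neighbours in this order, differed by less than the SD of *Hmgb2*. Some members have near-identical copies or overlapping genes, which the counting could split or merge. More than 20% of the 31-base words of the exons of *Ccnb1* (27.7%), *Cdc20* (25.5%), *Uhrf1* (24.2%), *Pcna* (23.3%), *Stmn1* (22.4%) and *Hmgb2* (21.4%) occur in other annotated genes on the same strand. On the opposite strand, *Kif20a* shares 26.7% of its exon sequence with *Cdc23* and *Ube2c* 21.1% with other genes, of which *Tnnc2* overlaps it. Whether the counting used strand is not given in the sources used here, so reads of these genes may not be told apart.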

How the data were processed

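For each of 15 aortas, 1 mouse a library, the authors deposited a table of raw counts, which were used without change. The submitters' processing notes name STAR, Cufflinks, DESeq2 and the build mm10. The counting program, its annotation and its use of strand are not given in the sources used here, and the labels give no batch. Reads outside genes (6.26 to 14.4%) and ambiguous reads (1.34 to 1.97%) were left out of library sizes, and 8268957 to 13816864 reads on genes remained. Reads are not independent molecules, so depth covers counting error only.

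Genes were filtered with filterByExpr (minimum count 10, minimum total 15), scaled by TMM and tested with edgeR 4.0.16 in R 4.3.3 (quasi-likelihood test, 2-sided, all 15 libraries, 3 groups, no covariate). A gene was called at an unadjusted P value under 0.01, the threshold of the study's methods, with Benjamini-Hochberg adjusted P values beside it. Mean log2 CPM used a prior count of 3. Alternatives were DESeq2 1.42.0, limma 3.58.1 (voom with sample quality weights), other scaling, filters, samples and a replicate block. The code was tested on simulated data. Same-numbered libraries of different groups did not deviate together (r from -0.466 to 0.463, above 0.1 in 5 of 15 pairs), so the numbers were not taken as pairs.

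The members and gene lists were chosen with earlier results of these data known. Values in every library are given for the 1 or 2 members with the smallest P in each role group in the first 2 comparisons, and up to 3 genes of each pathway list are given by the same measure. Other genes named from a list are those of a short list of calls, chosen after their values were seen. Promoters came from RefSeq (GRCm38.p6), and exon lengths and shared 31-base words from GENCODE M21. Figures were drawn with matplotlib 3.10.9.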

Additional observations from a re-analysis of the deposited data

Results flagged for a closer look

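In each group of 5, a library was singled out where its gap to the nearest other library exceeded 0.71 of the group's range (Dixon's test on log2 levels). Of 132 groups tested 10 did so, where chance gives about 6.6.

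Control replicate 1 was the lowest of its group in the mean log2 level of the members, at 1.36 with a ratio of 0.732. It was also lowest in *Ccnb1* (0.724 CPM against 1.88 to 2.27 CPM, ratio 0.822), in *Bub1* (0 CPM against 0.626 to 0.913 CPM, ratio 0.811) and in *Mki67* (3.71 CPM against 8.34 to 11.3 CPM, ratio 0.722). *Nusap1* was lowest in control replicate 2 (1.50 CPM against 2.35 to 2.55 CPM, ratio 0.846), and *Ncapg* in control replicate 3 (0.104 CPM against 0.724 to 1.06 CPM, ratio 0.769). Orchiectomized replicate 2, the library with the most lung transcripts, was highest in *Hmgb2* (41.1 CPM against 17.6 to 20.8 CPM, ratio 0.802) and in *Cenpa* (14.9 CPM against 5.05 to 6.74 CPM, ratio 0.736). Among DHT-treated mice, *Hells* was highest in replicate 4 (1.23 CPM against 0.684 to 0.811 CPM, ratio 0.726) and *Plk1* lowest in replicate 1 (0.599 CPM against 1.14 to 1.44 CPM, ratio 0.712).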

How the results depend on the processing

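After orchiectomy 6 members were called higher, against 2.08% of all genes tested. The count was 0 at an adjusted P value under 0.05 (0% of genes) and 3 with only the 2 groups compared in the fit (1.01%). It was 1 without orchiectomized replicates 2 and 3 (0.559%). Without replicates 2, 3 and 4, a choice made after seeing the data, it was 1 (0.477%), with a median log2 fold change of 0.24. Leaving out 1 library gave 2 to 8 members. It gave 2 without control replicate 1 (1.22% of genes), control replicate 3 (1.25%) or orchiectomized replicate 3 (2.43%). It gave 3 without orchiectomized replicate 2 (0.846%) or DHT-treated replicate 3, and 8 without orchiectomized replicate 5 (2.78%). With DHT against orchiectomized mice 30 members were lower, against 7.27% of all genes. The count was 18 without orchiectomized replicates 2 and 3 (3.56%), 10 without 2, 3 and 4 (1.54%), and 23 to 33 without 1 library. The median of -1.06 became -0.80, -0.77 and, with limma voom, -0.75. With DHT against controls 6 members were lower (2.01% of genes) and 0 at an adjusted P value under 0.05 (0.149%). Without 1 library the count was 4 to 10, the 10 without control replicate 1. The mean log2 level in DHT-treated mice was 1.06 with a prior count of 0.5.

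Members called in all 15 fits without 1 library numbered 1 of 6, 20 of 30 and 4 of 6 in these comparisons, and those called under all 8 other settings 1, 10 and 4. With a replicate block the counts were 4, 29 and 5, and 3 of 15 libraries correlated best with a library of their own number.

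Directions turned only in members that had not passed the test in that comparison. After orchiectomy, without replicates 2, 3 and 4, the log2 fold change was -0.070 in *Rrm1*, -0.044 in *Hells*, -0.085 in *Ccne2*, -0.045 in *Cdk1*, -0.26 in *Bub1b*, -0.052 in *Cenpf*, -0.53 in *Ndc80*, -0.068 in *Kif20a* and -0.17 in *Kif23*. Without replicates 2 and 3 *Bub1b* was at -0.0087. With limma voom *Ccne2* was at -0.063 and *Ndc80* at -0.049, and *Ccne1* with DHT at 0.029. Leaving out 1 library moved *Ccne2* between -0.27 (without orchiectomized replicate 3) and 0.37 (without replicate 2) after orchiectomy, and between -0.60 and 0.034 with DHT. The cause was not tested. Members under 1 CPM rest on a few to about 10 counts a library, which limits their precision.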
